A study of Mus musculus with 30 samples.

Results

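Mlxipl, Mlx, Mlxip, Srebf1, Txnip, Arrdc4 and Klf10 are sugar-sensing transcription factors and classic sugar-responsive genes. They are 7 of the 47069 genes in the deposited table, chosen by name for what they are known to do. They were followed in duodenum and liver of C57BL/6 mice given a fructose diet, a dextrose diet (D-glucose) or a corn starch control diet. With 5 poly-A selected RNA-seq libraries of whole tissue in each of the 6 groups, there were 30 libraries. The age and sex of the mice and the length of feeding are not given in the sources used here, and the labels do not state 1 mouse per library, so a p-value here reflects how these libraries vary.

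ChREBP, the product of Mlxipl, is a transcription factor that sugar phosphates activate. With its obligate partner Mlx it binds carbohydrate response elements, pairs of E-boxes (CACGTG) 5 bases apart, in genes of sugar breakdown and fat synthesis. MondoA, the product of Mlxip, is a close relative that also pairs with Mlx and is best known from skeletal muscle. Srebf1 encodes SREBP1, a membrane-bound precursor that is cleaved to release a transcription factor of fatty acid synthesis genes and that insulin raises in liver. Txnip and Arrdc4 are related alpha-arrestins that limit glucose uptake and respond to ChREBP and MondoA, and Klf10 is a zinc-finger factor of the Klf family reported as a ChREBP target in liver. ChREBP and SREBP1 are also controlled after transcription, by nuclear entry, binding and cleavage, which RNA counts do not measure.

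RefSeq promoters (build GRCm38.p6) were available for 6 of the 7 genes, with 9 promoters in all; Klf10 had no entry. The 250 bases before the start site are given for the genes in which a spaced E-box pair was found, because that is the element ChREBP and Mlx bind, and for the second promoter of Mlxipl. Capitals mark matches, searched on both strands in the 300 bases from 250 before to 50 after the start: the E-box CACGTG, and CACGTG, 5 bases of any kind and CACGTG again with at most 3 mismatches among the 12 compared letters. The sequences run 5′ to 3′ on the strand of the gene.
Txnip, chr3:96557707-96557956, plus strand: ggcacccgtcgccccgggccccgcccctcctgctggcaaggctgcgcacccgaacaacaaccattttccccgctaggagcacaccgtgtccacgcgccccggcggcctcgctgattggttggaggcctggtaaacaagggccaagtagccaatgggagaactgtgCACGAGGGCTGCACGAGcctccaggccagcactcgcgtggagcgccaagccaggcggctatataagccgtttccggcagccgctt
Arrdc4, chr7:68749239-68749488, minus strand: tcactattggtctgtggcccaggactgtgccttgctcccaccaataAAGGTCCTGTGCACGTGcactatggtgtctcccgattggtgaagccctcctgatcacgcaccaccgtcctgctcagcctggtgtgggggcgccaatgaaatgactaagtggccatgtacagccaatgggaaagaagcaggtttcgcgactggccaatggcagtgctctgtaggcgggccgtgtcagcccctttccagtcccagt
Mlxipl, upstream promoter, chr5:135089640-135089889, plus strand: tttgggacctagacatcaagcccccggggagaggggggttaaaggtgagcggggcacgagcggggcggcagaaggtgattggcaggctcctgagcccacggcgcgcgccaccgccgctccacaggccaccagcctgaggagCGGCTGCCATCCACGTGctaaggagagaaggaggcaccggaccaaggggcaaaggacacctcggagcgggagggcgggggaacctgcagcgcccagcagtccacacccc
Mlxipl, downstream promoter, chr5:135106641-135106890, plus strand: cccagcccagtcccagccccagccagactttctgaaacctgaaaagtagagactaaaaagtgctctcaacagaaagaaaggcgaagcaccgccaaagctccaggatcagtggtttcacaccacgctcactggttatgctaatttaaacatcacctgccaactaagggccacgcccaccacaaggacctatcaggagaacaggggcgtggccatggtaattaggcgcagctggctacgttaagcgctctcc

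The Txnip promoter held a spaced pair with 2 mismatches, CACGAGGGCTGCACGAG, from base -85 to -69 relative to the start site. Of 32851 mouse promoters of the same length, 0.953% held a pair with at most 2 mismatches and 8.56% held one with at most 3. The Arrdc4 promoter held an E-box from -193 to -188 that was part of a pair with 3 mismatches, from -204 to -188. In the upstream promoter of Mlxipl an E-box from -98 to -93 was likewise part of a pair with 3 mismatches, from -109 to -93. An E-box was found in 7.15% of all promoters, and Mlx had one from -40 to -35 with no pair. These letters were not found in the downstream promoter of Mlxipl, the promoter of Mlxip or the 3 promoters of Srebf1. The upstream first exon of Mlxipl is known as the start of the shorter ChREBP-beta, and the Srebf1 promoters as the starts of SREBP-1a and SREBP-1c. The deposited counts are per gene and cannot tell these transcripts apart.

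Total counts per library ran from 14530137 to 19850935, and each of the 7 genes had at least 127 counts in each library. Markers followed the tissue labels: the summed CPM (counts scaled to the library total) of 6 hepatocyte markers were 62877 to 93976 in liver and 1.84 to 187 in duodenum. In all, 5 libraries stood apart. Duodenum fructose 3 and control 3 carried pancreatic acinar markers (48.1 and 121 summed CPM, against at most 0.860 in the other duodenum libraries). Duodenum control 5 carried hepatocyte markers (187 summed CPM, against at most 13.8 in the other duodenum libraries). Liver dextrose 5 and control 2 had cell cycle markers at 175 and 161 summed CPM, against 3.83 to 9.16 in the other liver libraries. They also had enterocyte markers at 1408 and 1844, against at most 946. Acinar markers were found in liver too, at 1.28 to 67.6 summed CPM in fructose livers, 0.770 to 1102 in dextrose livers and 2.28 to 324 in control livers. Liver control 5 (324) and dextrose 4 (162) were kept with the other libraries. Values without these 5 libraries are given where they change a result, and the part these transcripts play in a result was not tested.

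On the control diet the partners of the ChREBP network were unequally spread over the tissues. Mlx and Mlxip were much lower in liver than in duodenum, and Mlxipl and Srebf1 were higher in liver. In FPKM, the authors' values scaled by depth and gene length, Mlx was at 21.9, 23.8, 19.1, 16.9 and 29.8 in control liver, against 80.4, 86.0, 83.4, 97.9 and 85.6 in control duodenum. No liver library reached a duodenum library. The same held for Mlx in the CPM used for the test, with library sizes scaled by trimmed means, where 28.9% of genes tested showed it. Mlxip was at 2.74, 4.63, 1.83, 2.08 and 1.89 FPKM in liver and at 12.5, 10.8, 9.36, 12.9 and 11.2 FPKM in duodenum, again without overlap. The log2 difference of liver over duodenum was -1.65 ± 0.14 for Mlx and -1.84 ± 0.17 for Mlxip (SE, n = 5 per group). Their edgeR adjusted p (quasi-likelihood test, Benjamini-Hochberg adjustment over all genes tested) was 7.6e-12 and 6.99e-11. For Srebf1 the difference was 1.01 ± 0.23 (edgeR adjusted p = 0.000282), and for Mlxipl it was 0.63 ± 0.28 (edgeR adjusted p = 0.0411). The Srebf1 and Mlxipl libraries of the tissues overlapped.

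Among the sugar-responsive genes, Arrdc4 was lower in control liver by a log2 difference of -0.40 ± 0.17 (edgeR adjusted p = 0.0331). Its FPKM, which lack the trimmed-mean scaling of the test, were 4.89 to 7.78 in liver and 8.93 to 14.4 in duodenum. In the scaled CPM of the test the Arrdc4 libraries of the tissues overlapped, with means of 13.1 in liver and 17.4 in duodenum. Txnip had a log2 difference of -0.12 ± 0.28 (edgeR adjusted p = 0.697) and Klf10 one of 0.55 ± 0.29 (edgeR adjusted p = 0.0836). In all, 5 of the 7 genes passed in this comparison, where 74.6% of 15268 tested genes did, so the share is near that of genes at large; at an unadjusted p of 0.05 the same count was 5, against 76.3% of genes. The calls of Mlx, Mlxip and Srebf1 held in all 16 alternatives run, with log2 differences of -1.79 to -1.54, -2.09 to -1.72 and 0.85 to 1.14. The calls of Mlxipl and Arrdc4 were lost in several, and upper-quartile scaling, which moved the median of all genes to 0.11, lost Arrdc4 and gained Klf10. Libraries whose removal alone ended the Mlxipl call were duodenum control 1, 2, 3 and 5 and liver control 1, 3 and 4, with log2 differences of 0.46 to 0.61. Leaving out duodenum control 4 or liver control 2, 3 or 5 ended the Arrdc4 call (-0.40 to -0.29), and leaving out liver control 2 or 5 brought Klf10 past the threshold (0.70 to 0.72).

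**Figure D1:**
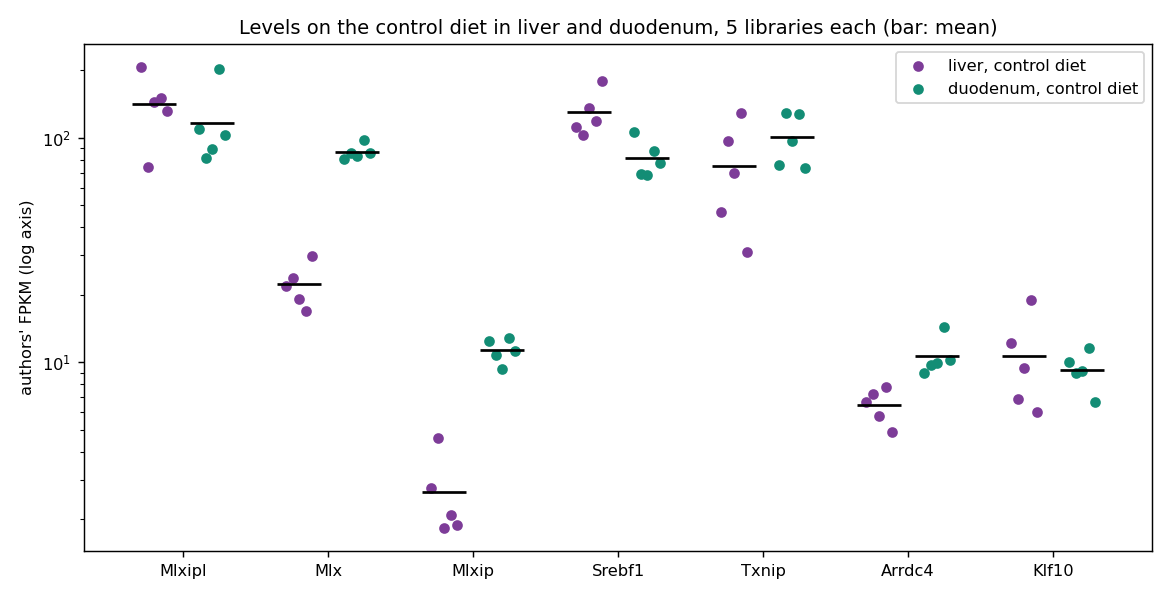
Level of each of the 7 genes in the authors' FPKM, on a log axis, in control liver (left) and control duodenum (right), with 5 libraries per tissue as points and the mean as a bar. Mlx (16.9 to 29.8 in liver, 80.4 to 97.9 in duodenum), Mlxip and Arrdc4 (4.89 to 7.78 in liver, 8.93 to 14.4 in duodenum) separate the tissues without overlap in FPKM. In the scaled CPM of the test the Arrdc4 libraries overlapped.

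Levels can be set side by side between genes in FPKM, since it divides by length. Over the 6 groups the order of group means for Mlxipl was liver fructose (205 ± 18.7 FPKM, SD, n = 5), duodenum fructose (178 ± 19.6), liver dextrose (163 ± 53.5), liver control (141 ± 47.4), duodenum dextrose (135 ± 33.2) and duodenum control (117 ± 48.9). Each group overlapped the next in the range of its libraries. Overlap is not a test, and differences between neighbours in this order were not tested in FPKM. Srebf1 was highest in liver dextrose (179 ± 73.1 FPKM), followed by liver control (129.7 ± 30.2), liver fructose (108 ± 8.74), duodenum control (81.3 ± 15.6), duodenum fructose (71.5 ± 9.97) and duodenum dextrose (70.1 ± 14.7). Neighbours overlapped here too. Txnip ran from 113 ± 19.8 FPKM in duodenum dextrose to 37.3 ± 11.6 in liver fructose, with overlap at each step.

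Mlx and Mlxip had a single gap in their order, between the lowest duodenum group and the highest liver group. Mlx had group means of 19.8 to 22.3 FPKM in liver and 83.0 to 87.4 FPKM in duodenum. The Mlxip means were 2.64 to 2.77 FPKM in liver and 10.6 to 11.3 FPKM in duodenum, so in each tissue it was below Mlxipl by FPKM. Arrdc4 (6.46 to 12.7 FPKM) and Klf10 (6.16 to 10.8 FPKM) were low next to Txnip in every group mean.

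The diet comparisons ask whether sugar in the diet moved the transcripts of these factors. By the edgeR test at an adjusted p of 0.05, 0 of the 7 genes passed in any of the 6 comparisons of diets within a tissue. Among all genes 6.71% passed for fructose against control in duodenum, 2.25% for dextrose against control and 3.64% for fructose against dextrose. In liver the shares were 0.258%, 0% and 0.0759%, so with 7 genes a count of 0 is close to that background. At an unadjusted p of 0.05, 3 of 7 passed for fructose against control in duodenum (background 19.3%), 0 for dextrose against control (10.8%) and 2 for fructose against dextrose (16.1%). In liver these counts were 2 (11.7%), 0 (4.2%) and 2 (9.45%). DESeq2 called 1 gene for fructose against control in duodenum, Mlxipl, and 1 for fructose against dextrose, Txnip, and 0 in the other 4. For fructose against dextrose in duodenum DESeq2 called 826 genes in all, where edgeR called 506. The shares above are those of edgeR, so the DESeq2 counts cannot be read against them. In whole tissue, fewer cells of a type and less RNA per cell cannot be told apart.

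**Figure D2:**
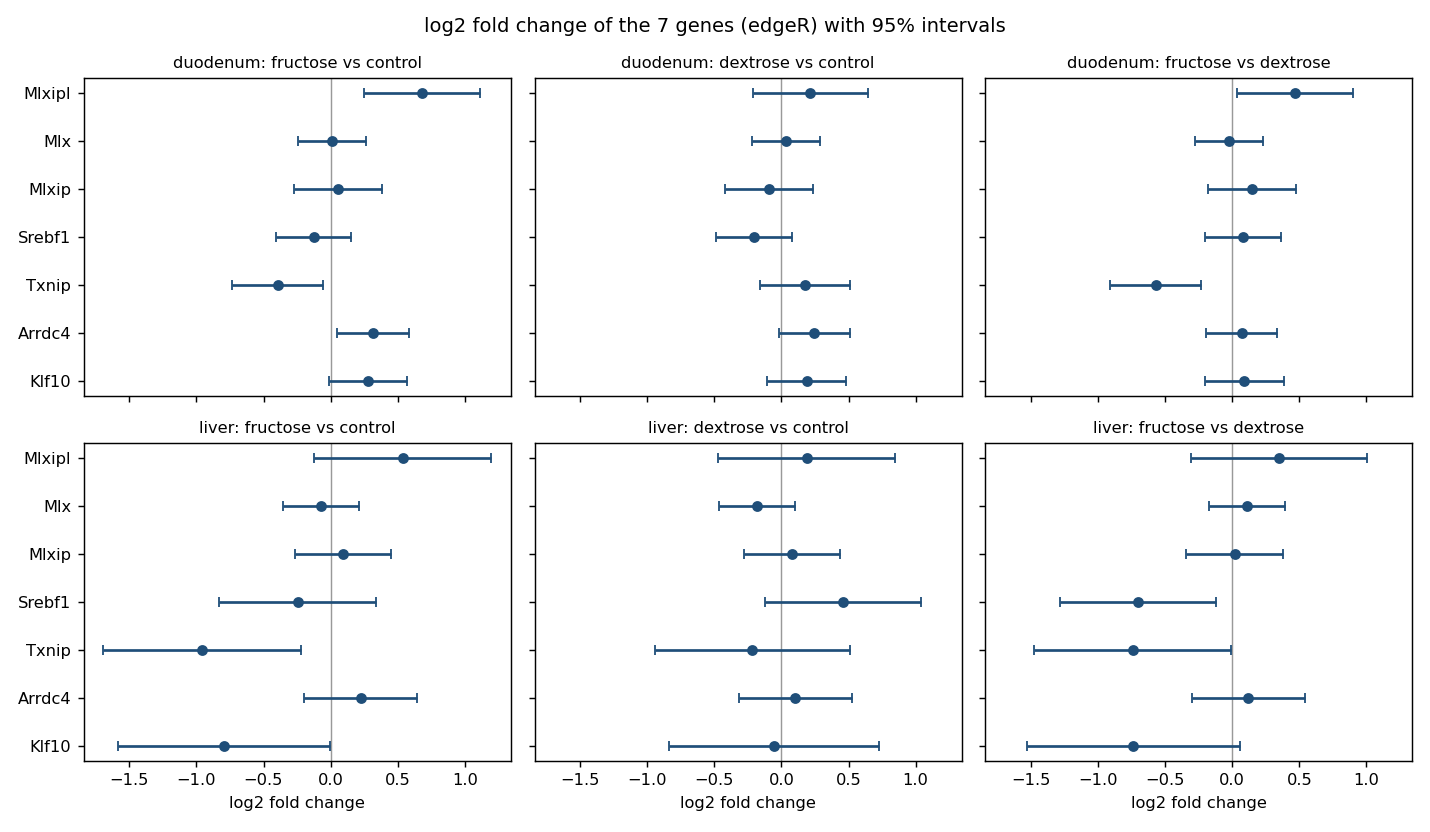
Log2 fold change of each gene in the 6 comparisons of diets (edgeR), with 95% intervals as bars, duodenum above and liver below; a positive value means higher in the diet named first. The intervals of Mlxipl (0.25 to 1.11) for fructose against control and of Txnip (-0.91 to -0.23) for fructose against dextrose in duodenum lie farthest from 0 relative to their width.

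Mlxipl came nearest to the threshold on fructose in the duodenum. By TMM-scaled CPM (CPM with library sizes scaled by trimmed means, used for all values by library below) it stood at 355, 407, 368, 454 and 327 on fructose, 214, 236, 308, 266 and 358 on dextrose, and 229, 168, 185, 401 and 207 on control. Every fructose library was above 4 of the 5 control libraries, and control 4 lay among the fructose libraries. The log2 fold change of fructose over control was 0.68 ± 0.20 (SE), 1.60-fold, with an edgeR adjusted p of 0.056 (0.000688 to 0.381 over the alternatives). Against dextrose it was 0.47 ± 0.20 (edgeR adjusted p = 0.264), and dextrose over control was 0.22 ± 0.20 (edgeR adjusted p = 0.852).

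With DESeq2 the same difference passed over all libraries (0.69, DESeq2 adjusted p = 0.0128), and with edgeR the call changed when a single control library was left out. Without duodenum control 4 the Mlxipl difference of fructose over control was 0.95 ± 0.15 (edgeR adjusted p = 0.000688). Control 4 also had the most T and NK cell markers of the 15 duodenum libraries (370 summed CPM, against 83.8 to 224 in the others) and the fewest smooth muscle markers of the controls (133 summed CPM, against 345 to 841). Those markers were not part of the fit, and their part in the Mlxipl level was not tested. Without the 3 duodenum libraries that stood apart the difference was 0.54 ± 0.25 (edgeR adjusted p = 0.381).

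In liver, Mlxipl had 387, 452, 426, 496 and 426 CPM on fructose, 421, 338, 454, 377 and 127 on dextrose, and 441, 125, 329, 331 and 279 on control. The 5 fructose livers were close to each other, and the low value of each other diet belonged to a library that stood apart, dextrose 5 and control 2. Fructose over control was 0.54 ± 0.31 (edgeR adjusted p = 0.518) with all libraries and 0.34 ± 0.14 (edgeR adjusted p = 0.218) without both. Dextrose over control was 0.19 ± 0.31 (edgeR adjusted p = 0.978), with a 95% interval of -0.47 to 0.85 on the log2 scale.

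**Figure D3:**
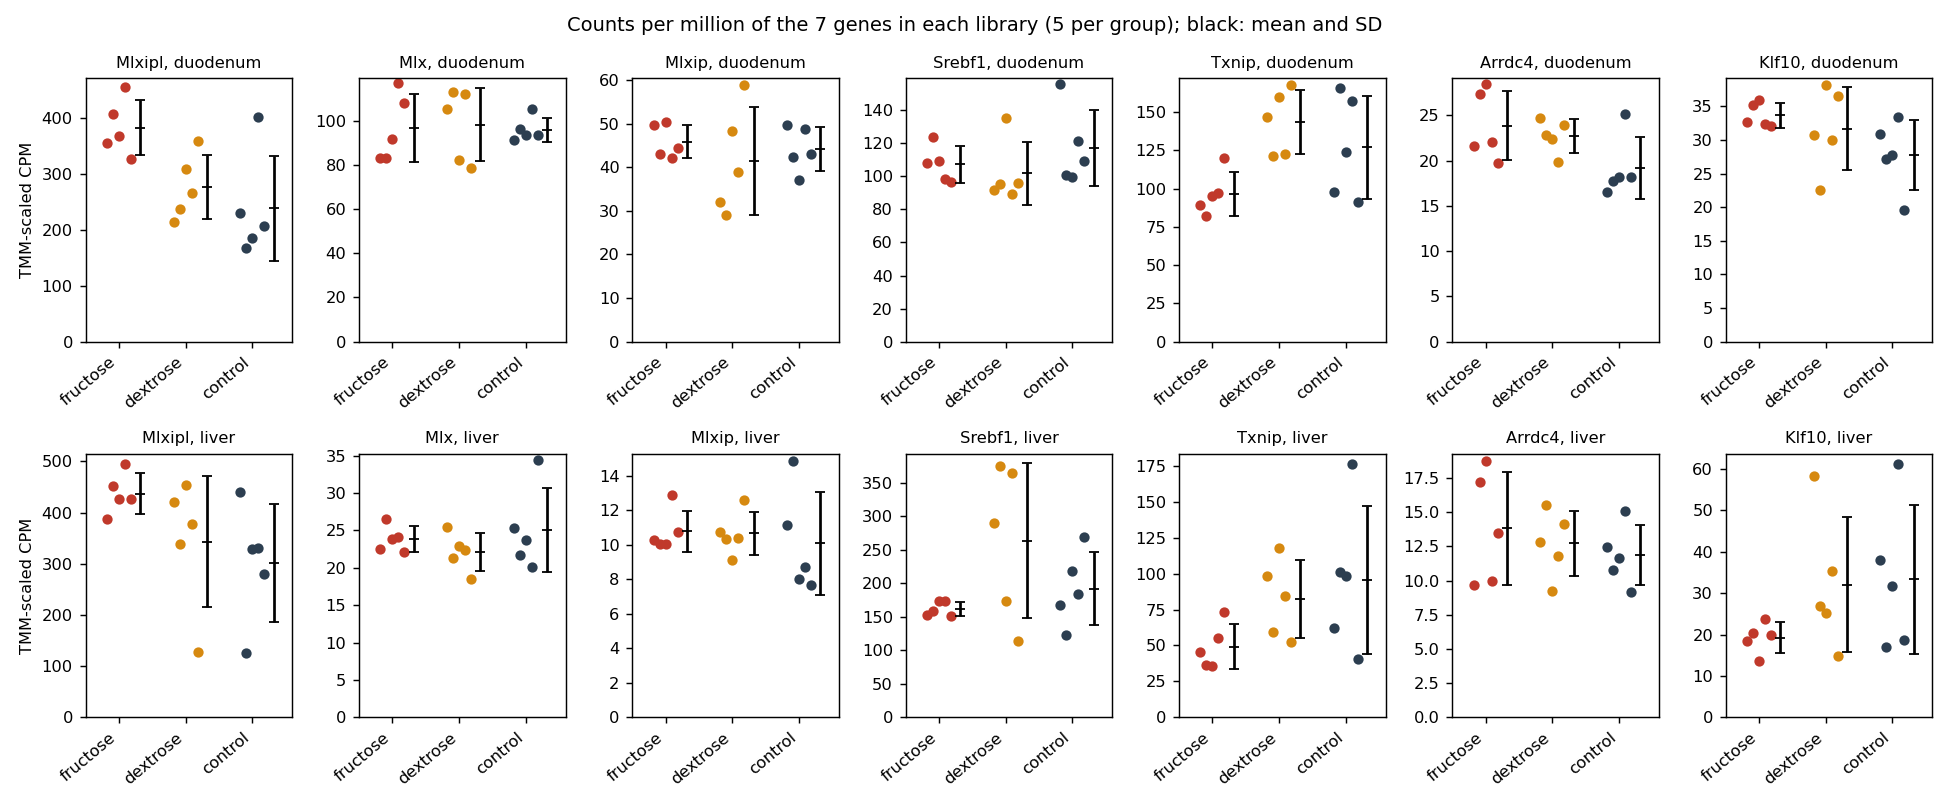
TMM-scaled CPM of the 7 genes in each library by diet, duodenum in the upper row and liver in the lower row, with the mean and SD of the 5 libraries of a group in black. Mlxipl in duodenum shows 327 to 454 on fructose and a control library at 401 above its group, and Txnip in liver shows 35.8 to 73.2 on fructose.

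Mlx and Mlxip, the partner and the relative of ChREBP, had overlapping levels on the 3 diets in the duodenum. Mlx had 83.2, 83.2, 91.9, 117 and 108 CPM on fructose and 91.1, 96.4, 93.7, 105 and 93.4 on control, with all control values inside the range on fructose. The log2 fold change of fructose over control was 0.01 ± 0.12 (edgeR adjusted p = 0.976), with a 95% interval of -0.24 to 0.26. For Mlxip the values were 49.6, 43.0, 50.3, 42.01 and 44.4 CPM on fructose, 32.0, 29.0, 48.4, 38.9 and 58.9 on dextrose and 49.6, 42.4, 37.0, 48.7 and 43.0 on control. The dextrose libraries of Mlxip spread most, with a coefficient of variation of 29.7%, against 8.37% on fructose and 11.6% on control. Over the duodenum diet comparisons Mlxip ranged from -0.09 to 0.15 in log2 fold change, and Mlx from -0.02 to 0.03.

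In liver, Mlx averaged 23.8 ± 1.73 CPM on fructose, 22.1 ± 2.53 on dextrose and 25.1 ± 5.57 on control (SD, n = 5 each). Mlxip averaged 10.8 ± 1.19, 10.7 ± 1.26 and 10.1 ± 3.00 CPM on the same diets. The 95% intervals of their log2 fold changes over the 3 liver comparisons lay between -0.46 and 0.45.

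Srebf1 had its highest liver values on dextrose. It stood at 153, 159, 174, 173 and 151 CPM on fructose, 291, 375, 174, 365 and 114 on dextrose, and 168, 123, 218, 184 and 269 on control. The fructose livers formed a narrow band, while 3 of the 5 dextrose livers lay above every other liver library. Fructose over dextrose was -0.70 ± 0.28 (edgeR adjusted p = 0.433), dextrose over control was 0.46 ± 0.27 (edgeR adjusted p = 0.922) and fructose over control was -0.25 ± 0.27 (edgeR adjusted p = 0.761). Without liver dextrose 5 and control 2, fructose over dextrose passed, at -0.88 ± 0.18 (edgeR adjusted p = 0.0257, and 0.0257 to 0.732 over all alternatives). The difference between the tissues in that effect, liver minus duodenum, was -0.79 ± 0.32 with all libraries (edgeR adjusted p = 0.39).

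In duodenum, Srebf1 had 108, 124, 109, 98.3 and 96.3 CPM on fructose, 91.7, 95.6, 135, 89.6 and 96.3 on dextrose, and 156, 101, 99.3, 121 and 109 on control. The 3 diets overlapped. Srebf1 differed by -0.13 ± 0.13 for fructose over control (edgeR adjusted p = 0.655) and by -0.20 ± 0.13 for dextrose over control (edgeR adjusted p = 0.691).

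Txnip had its lowest mean on fructose in both tissues. In duodenum it had 89.0, 82.0, 95.0, 97.2 and 120.1 CPM on fructose, 147, 121, 159, 123 and 168 on dextrose, and 97.7, 166, 124, 157 and 91.3 on control. All 5 fructose libraries were below all 5 dextrose libraries, a separation that 2.73% of genes showed in this direction, while the control libraries spanned both. Fructose over dextrose was -0.57 ± 0.16, 0.673-fold, with an edgeR adjusted p of 0.0586 (0.0219 to 0.169 over the alternatives). It passed with upper-quartile scaling (-0.61), with DESeq2 (-0.56), in a fit of only these diets (-0.56) and without duodenum fructose 5 (-0.66). Fructose over control was -0.39 ± 0.16 (edgeR adjusted p = 0.171), and dextrose over control was 0.18 ± 0.16 (edgeR adjusted p = 0.842).

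In liver, Txnip had 45.5, 36.2, 35.8, 55.6 and 73.2 CPM on fructose, 98.1, 59.4, 118, 84.3 and 52.6 on dextrose, and 61.9, 101, 98.5, 176 and 40.9 on control. The fructose mean of 49.3 ± 15.7 CPM (SD, n = 5) lay under that of dextrose, 82.4 ± 26.9, and of control, 95.7 ± 51.6, and the groups overlapped. The log2 fold change of fructose over control was -0.96 ± 0.34, 0.515-fold, with an edgeR adjusted p of 0.287. This was the largest log2 fold change of the 7 genes in a diet comparison, and its 95% interval was -1.69 to -0.22. Fructose over dextrose was -0.74 ± 0.34 (edgeR adjusted p = 0.522).

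Arrdc4, the relative of Txnip, had its highest mean on fructose in both tissues. In duodenum it had 21.6, 27.3, 28.4, 22.04 and 19.7 CPM on fructose, 24.7, 22.8, 22.4, 19.8 and 23.9 on dextrose, and 16.5, 17.7, 18.2, 25.2 and 18.2 on control. All fructose and dextrose libraries were above control 1, 2, 3 and 5, and control 4 was again the high control. Fructose over control was 0.32 ± 0.13 (edgeR adjusted p = 0.162) and dextrose over control 0.25 ± 0.13 (edgeR adjusted p = 0.527). Without duodenum control 4, fructose over control was 0.43 ± 0.11 and passed (edgeR adjusted p = 0.0221). In liver, Arrdc4 had 9.69, 17.2, 18.8, 9.97 and 13.5 CPM on fructose, 12.9, 15.5, 9.26, 11.8 and 14.1 on dextrose, and 12.5, 10.8, 11.6, 15.1 and 9.19 on control. These liver values overlapped throughout, with fructose over control at 0.22 ± 0.20 (edgeR adjusted p = 0.694).

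Klf10 had its highest duodenum mean and its lowest liver mean on fructose. In duodenum it had 32.7, 35.3, 36.0, 32.4 and 32.1 CPM on fructose, 30.8, 22.6, 38.2, 30.1 and 36.6 on dextrose, and 30.8, 27.1, 27.8, 33.4 and 19.6 on control. The fructose libraries lay close together, at a coefficient of variation of 5.43%, and overlapped the controls through control 4. The difference of fructose over control was 0.28 ± 0.14 (edgeR adjusted p = 0.289). In liver it had 18.4, 20.5, 13.6, 23.8 and 19.8 CPM on fructose, 58.3, 27.0, 25.1, 35.3 and 14.7 on dextrose, and 38.1, 17.01, 31.7, 61.2 and 18.6 on control. Fructose over control was -0.79 ± 0.37 there (edgeR adjusted p = 0.426). The test of the difference between tissues gave -1.09 ± 0.41, liver minus duodenum, with an edgeR adjusted p of 0.217 (0.112 to 0.373 over the alternatives).

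When liver was set against duodenum in its response to a diet, 0 of the 7 genes passed in any of the 3 contrasts by edgeR, where 1.08% of genes passed for fructose against control, 0.118% for dextrose against control and 0.662% for fructose against dextrose. DESeq2 called 0 as well. At an unadjusted p of 0.05 the counts were 1 (background 13.3%), 0 (6.56%) and 2 (9.88%). The 1 was Klf10, and the 2 were Srebf1 and Klf10, all with lower values in liver minus duodenum. Klf10 and Srebf1 were singled out after their values were seen.

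Some known targets of ChREBP passed the test on fructose. In duodenum 7 of 16 tested targets rose on fructose against control (4.01% of all genes did) and 0 fell, with a list median of 0.53 in log2 fold change, against -0.02 over all genes tested and 0.05 over the 7 genes. Without the libraries that stood apart the list median was 1.10, with 8 of 17 targets higher. Triokinase Tkfc rose by 2.01 ± 0.12 (edgeR adjusted p = 3.2e-08) and Pklr, the pyruvate kinase of liver and gut, by 1.51 ± 0.10 (edgeR adjusted p = 7.05e-08). Against dextrose 8 rose (2.17% of all genes) and 0 fell. On dextrose against control 3 rose (1.15% of all genes) and 1 fell: Pklr rose by 0.65 ± 0.10 (edgeR adjusted p = 0.0016) and Tkfc by 0.69 ± 0.12 (edgeR adjusted p = 0.00316), while malic enzyme Me1 fell by 3.00 ± 0.43 on the log2 scale (edgeR adjusted p = 0.0016). Without the libraries that stood apart the Tkfc call on dextrose was lost (edgeR adjusted p = 0.0525). The duodenal counts on fructose, against control and against dextrose, were 7 or 8 in every alternative run. In the same comparison with control 1 of 7 enterocyte markers rose and 3 fell, and their part in these counts was not tested.

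Of 19 SREBP1 targets in duodenum, 3 rose and 0 fell on fructose against control, where 4.01% of all genes rose, at a median of 0.11 over the list. Without the libraries that stood apart 2 of 20 rose and the median was 0.33. Acetyl-CoA carboxylase Acaca rose by 1.60 ± 0.29 (edgeR adjusted p = 0.00274). Pyruvate carboxylase Pcx rose by 0.33 ± 0.09 and acetyl-CoA synthetase Acss2 by 0.45 ± 0.13 (edgeR adjusted p = 0.0391 and 0.0415). The Pcx and Acss2 calls were lost in 13 and 9 of 17 alternatives, those without duodenum fructose 2 or 3 and control 2, 4 or 5 among them for both, whereas the Acaca call was lost in none. Acaca stands in both target lists, which share 9 genes.

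In liver both target lists held genes that passed on fructose. Of 20 ChREBP targets 6 rose and 0 fell on fructose against control, where 0.19% of all genes rose (median 1.05, against -0.03 over all genes), and of 20 SREBP1 targets 6 rose and 0 fell (median 1.26). Me1, which supplies NADPH, rose by 1.82 ± 0.30 (edgeR adjusted p = 0.023), the desaturase Scd1 by 1.74 ± 0.34 (edgeR adjusted p = 0.0448) and the elongase Elovl5 by 1.184 ± 0.21 (edgeR adjusted p = 0.0282). On dextrose against control 0 of 20 passed in either list, by edgeR, by DESeq2 or at an unadjusted p of 0.05, with medians of -0.06 and 0.13. Among all genes 0% passed there by edgeR and 4.2% at an unadjusted p of 0.05, and DESeq2 called 1 gene. A count of 0 is therefore close to that background. Against dextrose, where 0.0607% of all genes rose on fructose, 2 ChREBP targets did, among them Me1 by 2.03 ± 0.30 (edgeR adjusted p = 0.016).

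These liver counts moved with the fit and with single libraries. For fructose against control the ChREBP and SREBP1 target counts were 9 and 10 with DESeq2, 3 and 3 without the filter on low counts, and 2 and 3 in a fit of only these diets. For fructose against control the ChREBP target count was 0 without liver fructose 1 or 2, 1 without fructose 3 or control 3 or 5, 2 without control 1 or 2, 3 without fructose 4 or control 4, and 7 without fructose 5. The SREBP1 target count ranged from 0 to 7 over the same libraries and was 0 without fructose 1, 2 or 3 or control 3 or 5. Without both libraries that stood apart the counts were 9 and 7, and against dextrose 7 and 5 in place of 2 and 1. The Me1 call against dextrose was lost without liver fructose 1, 2 or 3 or dextrose 1 or 2. Markers of other cell types had large negative median log2 fold changes on fructose in the same livers without passing the edgeR test. For fructose against control the median log2 fold change was -2.31 over 4 adipocyte markers, -2.59 over 6 acinar markers and -2.28 over 5 cell cycle markers, with 3, 0 and 0 at an unadjusted p of 0.05. Against dextrose these medians were -2.55, -3.75 and -2.39, with 3, 3 and 0. Summed cell cycle markers were at 161 CPM in control 2 and 175 in dextrose 5, against 3.83 to 9.16 in the other livers. The median library of the fructose livers was above that of either other diet in these summed markers. The negative cell cycle values therefore do not describe the typical liver of a diet. Summed adipocyte markers were at 13.9 to 16.1 CPM in fructose livers, 13.6 to 77.9 in dextrose livers and 16.6 to 132 in control livers. The part of these markers in the target counts was not tested.

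**Figure D4:**
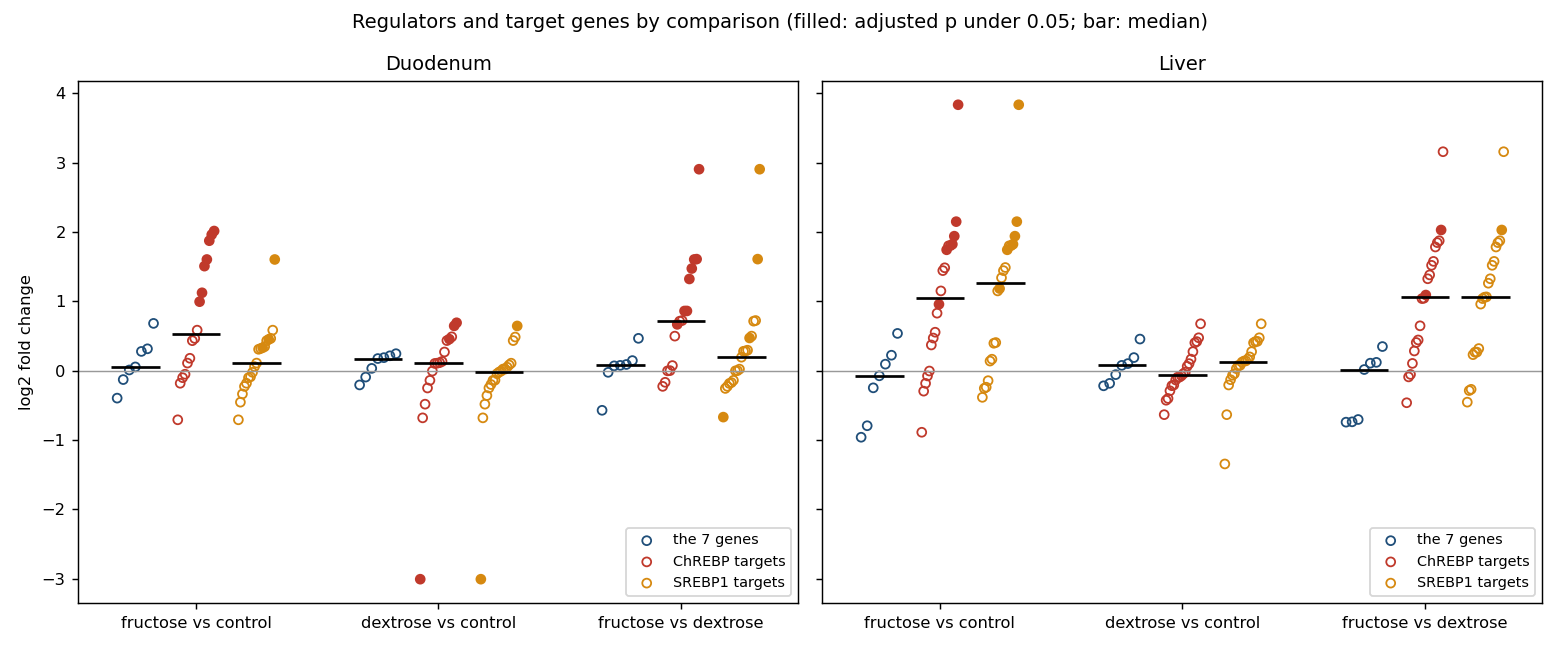
Log2 fold change of the 7 genes, of ChREBP targets and of SREBP1 targets in each comparison, duodenum left and liver right; each circle is a gene, filled where the edgeR adjusted p was under 0.05, and the bar is the median of the list. On fructose against control the ChREBP targets have medians of 0.53 in duodenum and 1.05 in liver, and no circle of the 7 genes is filled.

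Genes that act on the 7 gave counts of 0 or 1 per list by edgeR with all libraries, close to the shares of all genes. Of 11 genes of SREBP activation (Scap, Insig1, Insig2, the site proteases, liver X receptors and others), 0 passed on fructose against control in either tissue by edgeR. Among all genes 6.71% passed in duodenum and 0.258% in liver. At an unadjusted p of 0.05, 3 of the 11 passed in duodenum (background 19.3%) and 3 in liver (11.7%), and DESeq2 called 0 and 1. By edgeR 1 of the 11 rose in liver without the libraries that stood apart, where 225 of all genes passed. On dextrose against control in duodenum, where 2.25% of all genes passed, 1 of the 11 fell. It was Nr1h3, the liver X receptor that drives Srebf1, by 0.42 ± 0.09 (edgeR adjusted p = 0.0169). The call was lost without duodenum dextrose 1, without control 2 and without the libraries that stood apart (edgeR adjusted p of up to 0.0689 over the alternatives). In the MYC, MAX and MLX network, whose members share Max or Mlx as a partner, 1 of 10 rose on fructose against control in duodenum (background 4.01%). It was Mnt, a repressor that pairs with Max and Mlx, at 0.45 ± 0.10 (edgeR adjusted p = 0.00659), lost without the libraries that stood apart (edgeR adjusted p = 0.138). Against dextrose Mnt rose by 0.48 ± 0.10 (edgeR adjusted p = 0.00675) and the call held in all 17 alternatives. In liver 0 of 9 passed in any of the 3 comparisons by edgeR or DESeq2. By edgeR 0.258% of all genes passed there for fructose against control, 0% for dextrose against control and 0.0759% for fructose against dextrose. At an unadjusted p of 0.05 the counts were 1 (background 11.7%), 0 (4.2%) and 0 (9.45%).

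Relatives of the sugar-responsive genes gave counts of 0 or 1 per list by edgeR, close to the shares of all genes for lists this short. Those shares were 6.71% for fructose against control, 2.25% for dextrose against control and 3.64% for fructose against dextrose in duodenum. In liver they were 0.258%, 0% and 0.0759%. Of 5 tested alpha-arrestins, Txnip and Arrdc4 included, 0 passed in any diet comparison by edgeR; DESeq2 called 1 of them, Txnip, for fructose against dextrose in duodenum. At an unadjusted p of 0.05, 3 passed for fructose against control (background 19.3%) and 1 for fructose against dextrose (16.1%) in duodenum. In liver 1 passed in each of these comparisons (11.7% and 9.45%). For dextrose against control 0 passed in duodenum (10.8%) and 0 in liver (4.2%). In the thioredoxin system, which Txnip binds, 1 of 7 rose on fructose against control in duodenum, the mitochondrial peroxiredoxin Prdx3 at 0.30 ± 0.09 (edgeR adjusted p = 0.0479), and the call was lost in 13 of 17 alternatives. Against dextrose the thioredoxin reductase Txnrd1 rose by 0.36 ± 0.08 (edgeR adjusted p = 0.0132), lost without the libraries that stood apart. Of 12 Klf genes tested in duodenum 1 fell on fructose and 1 on dextrose, both times Klf15, a factor of fasting metabolism. On fructose it fell by 2.19 ± 0.51 (edgeR adjusted p = 0.0167). On dextrose, against the same controls, it fell by 2.65 ± 0.53 (edgeR adjusted p = 0.0129). The call on fructose was lost without duodenum fructose 2, without the libraries that stood apart and without the filter on low counts.

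Of 12 genes that set the supply of hexose phosphate, the signal for ChREBP, 4 rose in duodenum on fructose against control and 0 fell, where 4.01% of all genes rose. The fructose transporter Slc2a5 rose by 3.02 ± 0.19 (edgeR adjusted p = 4.39e-08), the glucose transporter Slc2a1 by 0.84 ± 0.13 (edgeR adjusted p = 0.000742), and Slc37a4, which carries glucose 6-phosphate into the endoplasmic reticulum, by 0.72 ± 0.10 (edgeR adjusted p = 0.000282). In liver 0 of 12 passed in any comparison of diets by edgeR or DESeq2. By edgeR 0.258% of all genes passed there for fructose against control, 0% for dextrose against control and 0.0759% for fructose against dextrose. A count of 0 is close to that background, so it does not set liver apart from duodenum. At an unadjusted p of 0.05 the counts were 1 (background 11.7%), 0 (4.2%) and 0 (9.45%).

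Klf10 is also tied to the circadian clock in liver, and several clock genes moved in duodenum. On fructose against control 3 of 15 rose and 4 fell, where 6.71% of all genes passed in either direction. Bhlhe40 rose by 0.98 ± 0.12 (edgeR adjusted p = 6.39e-05) and Cry1 by 1.10 ± 0.17 (edgeR adjusted p = 0.000712), while Cry2 fell by 1.28 ± 0.19 (edgeR adjusted p = 0.000321). On dextrose, against the same controls, 0 rose and 1 fell, where 2.25% of all genes passed. The 1 was Cry2, by 1.12 ± 0.19 (edgeR adjusted p = 0.00257). Without the libraries that stood apart 2 rose and 1 fell on fructose against control. Clock genes follow the hour of sampling, which is not given in the sources used here, and its part in these values was not tested. In liver 0 of 17 clock genes passed in any comparison of diets by edgeR with all libraries. That is close to the shares of all genes, 0.258% for fructose against control, 0% for dextrose against control and 0.0759% for fructose against dextrose. At an unadjusted p of 0.05 the counts of clock genes were 5 (background 11.7%), 0 (4.2%) and 7 (9.45%). DESeq2 called 2, 0 and 1. When the libraries that stood apart were left out, edgeR called 1 clock gene lower for fructose against control in liver. For fructose against dextrose it then called 1 higher and 2 lower. In these fits 225 and 250 of all genes passed. Of 9 immediate early genes in liver 2 fell on fructose against control, where 0.258% of all genes passed: Ier2 by 1.04 ± 0.17 (edgeR adjusted p = 0.0205) and Egr1 by 2.03 ± 0.37 (edgeR adjusted p = 0.0437). Each was lost without liver fructose 1, 2 or 3 or control 3 or 5, and Egr1 also without fructose 4. The count was 1 without the filter on low counts and in a fit of only these diets.

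The 7 genes were compared in pairs over the 15 libraries of each tissue, 42 pairs in all, on log2 CPM. With permutation p-values and Benjamini-Hochberg adjustment over the pairs, 0 passed at 0.05. The highest Spearman's rho in duodenum was that of Mlxipl with Klf10, with Pearson's r = 0.66 (permutation adjusted p = 0.113) and rho = 0.74 (permutation adjusted p = 0.0505). Without the 2 libraries farthest from the median of Mlxipl r was 0.67. Over deviations from the diet means r was 0.54. Mlxipl with Arrdc4 had r = 0.66 and rho = 0.67 (permutation adjusted p = 0.113 and 0.0861), and r = 0.54 without the 2 farthest libraries. The partners Mlx and Mlxip had r = -0.63 and rho = -0.72 in duodenum (permutation adjusted p = 0.113 and 0.0505), and r = -0.59 without the 2 farthest. The sign was not shared by the diets: within a diet their r was -0.91 on dextrose, -0.54 on fructose and 0.28 on control. In liver Txnip with Klf10 had r = 0.68 and rho = 0.60 (permutation adjusted p = 0.113 and 0.124). Its r was 0.59 without the 2 farthest libraries and 0.57 over deviations from the diet means. Txnip and Arrdc4 had r = -0.03 and rho = -0.04 in duodenum (permutation adjusted p = 0.982 and 0.995). In liver they had r = -0.19 and rho = -0.23 (permutation adjusted p = 0.82 and 0.867).

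Mlxipl with Mlxip in liver had r = -0.40 and rho = 0.08 over 15 libraries, and r = 0.78 over the 13 left without dextrose 5 and control 2, the same libraries that are farthest from the median of Mlxipl. Over those 13 libraries that pair and Txnip with Klf10 (r = 0.79) passed, each with a permutation adjusted p of 0.0338.

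The genes whose levels ran most like each of the 7 were found by Pearson's r of log2 CPM over 15 libraries among 11494 genes in liver and 11714 in duodenum. In liver the genes most like Srebf1 included Fgfrl1 (r = 0.95) and Ttc7 (0.91). Mlxipl in liver was most like Gckr, the glucokinase regulator (0.97, and 0.83 without both libraries that stood apart), Sdr9c7 (0.97, and 0.73) and Tmie (0.95, and 0.62), values that lean on those libraries. Klf10 in liver was most like Itga7 (0.84), Syt1 (0.83) and the clock gene Bhlhe40 (0.83). Txnip in liver was nearest to Usp4 (0.88), Csnk2a2 (0.85) and Dnajc1 (0.79), and Arrdc4 to Atxn1 (0.82), Zfp608 (0.81) and Golph3l (0.80). Mlxip was nearest to Arhgef5 (0.88).

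In duodenum Mlxipl was most like Ankzf1 (0.92), Alg11 (0.92) and Dennd2d (0.91), and Txnip most like Prr5l (0.86), Slc29a3 (0.85) and Npl (0.82). Klf10 was nearest to St5 (0.90), Stk38 (0.89) and Tmem252 (0.88), and Arrdc4 to AA474331 (0.83), Dgke (0.81) and Sass6 (0.81). Srebf1 was nearest to Taf6 (0.86), Mlx to Tax1bp3 (0.89) and Mlxip to Ivns1abp (0.89). The libraries share diets, depth and tissue composition, so these values describe likeness over these libraries.

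Some counts may hold reads of other genes. In GENCODE M21, Mlxipl is overlapped by the antisense gene Gm43500, Mlx by Psmc3ip, Srebf1 by Rai1 and Txnip by the antisense gene Gm15441, each on the opposite strand. Srebf1 also holds the miRNA genes Mir6921 and Mir6922 on its own strand, and Mlxip is overlapped by the antisense Gm15747 and 3 short genes on its own strand. No gene overlaps Arrdc4 or Klf10. The library kit, as labelled, does not mark strand, so reads of these partners cannot be told apart from those of the 5 genes where they overlap.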

How the data were processed

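Total RNA was poly-T selected and made into NEBNext Ultra libraries, per the labels' protocols. The submitters' processing notes name TopHat2 2.0.12, Bowtie2 2.2.3, DESeq 1.18.0 and HTSeq 0.6.1, while the build, annotation and strand setting are not given in the sources used here. The authors deposited 1 table with raw counts per gene and FPKM values for 30 libraries. The deposited FPKM equalled count divided by gene length and total count within 0.001 for 100% of values. Genes below edgeR's default expression filter were left out, which kept 13884 genes in duodenum, 13178 in liver and 15268 over both; all 7 genes were kept.

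Counts were scaled by TMM and tested with edgeR 4.0.16 (R 4.3.3; robust quasi-likelihood, no replicate block), and p-values were adjusted by Benjamini-Hochberg across the genes kept. Each tissue was fitted over its 15 libraries, and contrasts between tissues over 30. DESeq2 1.42.0, RLE and upper-quartile scaling, no filter, a replicate block, fits of only the diets compared and leaving out each library were the alternatives; leaving out the 5 libraries that stood apart was chosen after seeing the data. Pairs of genes were compared on log2 CPM (prior count 3), with 100000 permutations. The fits were tested on simulated data. From each of 10 gene lists up to 3 genes past the threshold with the lowest p were named, and up to 3 genes most like each of the 7; some genes are not reported here. The genes and the lists, 12 of cell type markers among them, were chosen with earlier results of these data known.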

Additional observations from a re-analysis of the deposited data

Results flagged for a closer look

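In 42 groups of 5 libraries, 4 had a library whose gap to its nearest neighbour was over 0.71 of the group's range, the 95% critical value of Dixon's test; chance gives about 1 in 20. Duodenum control 4 was high for Mlxipl (401 CPM, against 168 to 229 in the other controls) and for Arrdc4 (25.2 CPM, against 16.5 to 18.2). Duodenum dextrose 3 was high for Srebf1 (135 CPM, against 89.6 to 96.3). Liver fructose 4 was high for Mlxip (12.9 CPM, against 10.1 to 10.7).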

How the results depend on the processing

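Of 982 alternative values of the 7 genes, 922 kept their direction and side of the threshold, 12 gained a call, 16 lost one and 32 turned sign, the last among differences near 0. The cause of each change was not tested. With DESeq2 1 of the 7 passed for fructose against control in duodenum and 1 for fructose against dextrose; for the second, upper-quartile scaling and a fit of only the diets compared gave 1 as well. Without the libraries that stood apart 1 passed for fructose against dextrose in liver and 2 liver pairs passed, and without the filter on low counts 3 passed for control liver against duodenum. With upper-quartile scaling Mlx in duodenum, fructose over control, was -0.027. Without the libraries that stood apart Mlxip there was -0.068 and Arrdc4, fructose over dextrose, -0.00092.

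Leaving out 1 library moved Mlx in duodenum between -0.064 and 0.066 (fructose over control), -0.022 and 0.10 (dextrose over control) and -0.11 and 0.040 (fructose over dextrose), and Mlxip between -0.0021 and 0.10 and between -0.25 and 0.012 in the first 2 of these. For fructose over dextrose there Arrdc4 moved between -0.00085 and 0.13 and Klf10 between -0.0084 and 0.18. In liver Mlx, fructose over control, moved between -0.14 and 0.068. Dextrose over control moved between -0.39 and 0.28 for Klf10, -0.0099 and 0.40 for Mlxipl, -0.0059 and 0.26 for Mlxip and -0.41 and 0.12 for Txnip. Fructose over dextrose moved between -0.00057 and 0.23 for Arrdc4 and -0.052 and 0.090 for Mlxip. Liver minus duodenum moved between -0.27 and 0.018 for Srebf1 (fructose over control) and -0.59 and 0.081 for Klf10 (dextrose over control), and control liver over duodenum between -0.46 and 0.068 for Txnip. Of the 7 genes 0 to 2 passed for fructose against control and 0 to 1 for fructose against dextrose in duodenum, and 3 to 5 for control liver against duodenum.

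Counts over all genes moved more. In duodenum fructose against control gave 932, and 329 without the libraries that stood apart. Its split was 557 higher and 375 lower, and 480 and 508 with upper-quartile scaling. Dextrose against control gave 312, and 524 with DESeq2, 163 without those libraries and 185 to 307 leaving out 1. Fructose against dextrose gave 506, and 826, 274 and 310 to 480 under the same settings, with 301 higher and 205 lower, against 282 and 329 with upper-quartile scaling. In liver fructose against control gave 34, and 217 with DESeq2, 225 without the libraries that stood apart, 14 with only the diets compared and 6 to 62 leaving out 1. Dextrose against control gave 0 with edgeR, with 554 at an unadjusted p of 0.05, and 1 with DESeq2. Fructose against dextrose gave 10, and 143, 250, 46 and 3 to 20 under those settings, and 16 without the filter. For the difference between tissues fructose against control gave 165 (380 with DESeq2, 102 to 222 leaving out 1), dextrose against control 18 (90, 13 to 32, and 36 without the libraries that stood apart) and fructose against dextrose 101 (183, 63 to 128, and 162).

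Library numbers are shared between groups, but the labels do not say what they pair. Same-numbered libraries had correlated deviations of -0.478 to 0.553, and at most 3 of 5 libraries matched their own number best. With a replicate block 1 of the 7 genes, Mlxipl, passed for fructose against control in duodenum (0.73, edgeR adjusted p = 0.0364). The block ended the Mlxipl call for control liver over duodenum (0.59, edgeR adjusted p = 0.0607). It left 0 ChREBP targets, 0 SREBP1 targets and 0 immediate early genes past the threshold for fructose against control in liver, in place of 6, 6 and 2, and 0 of each target list against dextrose, in place of 2 and 1. Liver counts over all genes were 4 for fructose against control and 0 for fructose against dextrose, and those of the difference between tissues 10 for dextrose against control and 60 for fructose against dextrose.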
